A study of Bos taurus with 8 samples.

Results

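Among 1153 genes in a small RNA profile of bovine alveolar macrophages, 2 genes, ENSBTAG00000029996 and ENSBTAG00000029994, formed the tier below the most abundant gene, ENSBTAG00000029897. They were chosen by their mean level over 8 animals, which had to reach 10000 CPM and stay under 100000, where CPM is the number of reads of a gene per 1000000 reads assigned to genes. Because mean level chose them, their levels are given as a description and were not tested. The study sequenced 1 library from each of 8 cattle. All 8 belong to 1 group without treatment or control: lung lavage cells were frozen, thawed and then cultured at 37 °C under 5% CO2 for 24 hours, with 10% fetal bovine serum, antibiotics and an antifungal in the medium, and adherent cells were collected. Breed, age and sex are not stated in the labels used here, and RNA brought in with the bovine serum cannot be told apart from cellular RNA.

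MicroRNAs are short RNAs cut from hairpin precursors and held by Argonaute proteins, where bases near the 5′ end, the seed, pair with messenger RNAs and lower their translation or stability. Alveolar macrophages are the resident phagocytes of the air spaces and among the first immune cells to meet inhaled microbes. The table lists gene identifiers alone, and 0 of the 1153 were found in the reference gene table, so no microRNA name, sequence, function or genome position is given for either gene. Macrophage marker microRNAs could not be checked for the same reason. All genes but these 3 are identified by rank in mean CPM. The table gives no lengths, so levels of different genes were compared as reads and not per length. Whether RNAs of different sequence entered the libraries at equal rates was not tested.

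The libraries held 3638161 to 5888148 assigned reads. Across the 143 genes averaging 10 CPM or more, the library of animal 8 stood apart, with a median Pearson correlation of 0.925 with the other libraries against 0.966 to 0.976 for the rest. The SDs, CVs and places by SD of the 2 genes, and the comparison of their spread, are therefore also given without it. Each animal gave a single library, so differences between animals include those of culture and library preparation, which could not be told apart.

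ENSBTAG00000029996 was second in all 8 animals and varied about its mean of 74379 CPM by 18784 (SD, n = 8). Its lowest level was 48863 CPM in animal 8, its median 71549 and its highest 104470.4 in animal 1. Animals 1 and 4 lay well above the others: animal 4 had 96907 CPM, and the next highest, animal 5, had 78687. Animal 1 was the 1 animal in which the gene passed 100000 CPM, the upper limit of the range that chose it. The remaining levels were 75744 in animal 7, 67355 in animal 2, 62999.7 in animal 3 and 60003 in animal 6. Animal 1 thus had 2.14 times the level of animal 8.

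ENSBTAG00000029994 was the next gene in all 8 animals and kept within a narrower band, at 17511 ± 1574 CPM (SD, n = 8). Its lowest level was 15631 CPM in animal 1, its median 17237 and its highest 20311 in animal 7, 1.30 times the lowest. Between these lay animal 4 with 15949, animal 2 with 16666, animal 8 with 17083, animal 5 with 17392, animal 3 with 18005 and animal 6 with 19051. The animals with the highest levels of ENSBTAG00000029996, animals 1 and 4, had the lowest levels of ENSBTAG00000029994. Animal 8, the lowest for the former gene, lay near the middle for the latter.

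**Figure D1:**
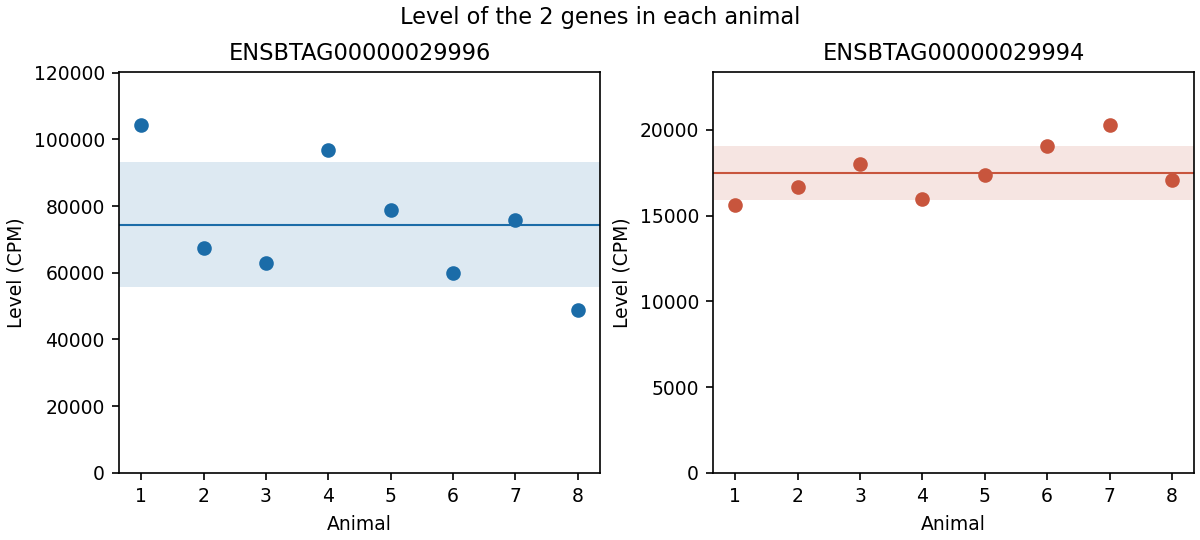
Level in CPM (y axis, from 0) of ENSBTAG00000029996 (left) and ENSBTAG00000029994 (right) in animals 1 to 8 (x axis). Points are single libraries, the line is the mean and the band the mean ± SD; the left panel runs from 48863 to 104470.4 CPM and the right from 15631 to 20311.

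Neither gene overlapped its neighbours in level. The lowest level of ENSBTAG00000029996 was 2.41 times the highest level of ENSBTAG00000029994, while the lowest level of ENSBTAG00000029897, 759241 CPM, was 7.27 times its own highest. At the lower limit of the range, ENSBTAG00000029994 with a mean of 17511 CPM was the last gene inside. The gene at rank 4 lay just outside, at 9552 ± 1446 CPM (SD, n = 8), although it passed 10000 CPM in 2 animals. The lowest value of ENSBTAG00000029994 was 1.25 times the highest of the gene at rank 4, 12551 CPM in animal 8, and 1.23 times the highest of the gene at rank 5, 12734 CPM in animal 7.

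With 226079 to 535406 reads for ENSBTAG00000029996 and 65504 to 112330 for ENSBTAG00000029994 in each library, counting error was small against the spread between animals. It would give a coefficient of variation (CV, the SD as a percentage of the mean) of 0.171% for the former and 0.343% for the latter, and the CVs found were 25.3% and 8.99% (21.7% and 9.62% without animal 8). In animal 1, for example, ENSBTAG00000029994 took 1.56% of reads (exact Clopper-Pearson 95% interval 1.55 to 1.57%), and in animal 7 it took 2.03% (2.02 to 2.04%). When the animals were put in order of share, 0 of the 7 neighbouring pairs had overlapping intervals for either gene. These intervals cover counting error only, since reads made by PCR without molecular identifiers are not independent molecules.

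The share of ENSBTAG00000029897, 75.9 to 81.4% of reads, bounds what other genes can take, so levels were also expressed as shares of the reads left once its reads were removed. These were 18.6% of all reads in animal 8 and up to 24.1% in animal 4. Of them, ENSBTAG00000029996 took 35.5% ± 6.79 (SD, n = 8). Animal 8 had the lowest share, 26.3% (95% interval by the same method 26.2 to 26.4%), the median was 36.1% and animal 1 had the highest, 47.2% (47.1 to 47.3%). The order of the animals was the same as in CPM, and the ratio of highest to lowest was 1.79.

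ENSBTAG00000029994 took 8.50% ± 1.09 (SD, n = 8) of the reads left. Its lowest share was 6.62% in animal 4, its median 8.88% and its highest 9.78% in animal 7. Animals 1 and 4, at 7.06% and 6.62%, lay apart from the other 6, which ran from 8.57 to 9.78%. Animal 8, under the median in CPM, had the second highest share here, 9.19%. Animals 2 and 3 had overlapping intervals and could not be ordered at this depth. The ratio of highest to lowest was 1.48, wider than the 1.30 found in CPM. Both genes together held between 35.5% of the reads left, in animal 8, and 54.3%, in animal 1.

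The reads left still include those of the 2 genes themselves. A further denominator was therefore the reads outside the 3 leading genes, which together held 88.4% ± 1.11 (SD, n = 8) of all reads. Relative to them, ENSBTAG00000029996 amounted to 40.8% in animal 8 and 103% in animal 1, with a mean of 65.4% ± 19.9 (SD, n = 8). ENSBTAG00000029994 amounted to 15.2% ± 1.67 (SD, n = 8), from 12.5% in animal 4 to 18.2% in animal 7. Animal 1, lowest for this gene in CPM, lay at 15.4% and above its median of 15.2%.

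**Figure D2:**
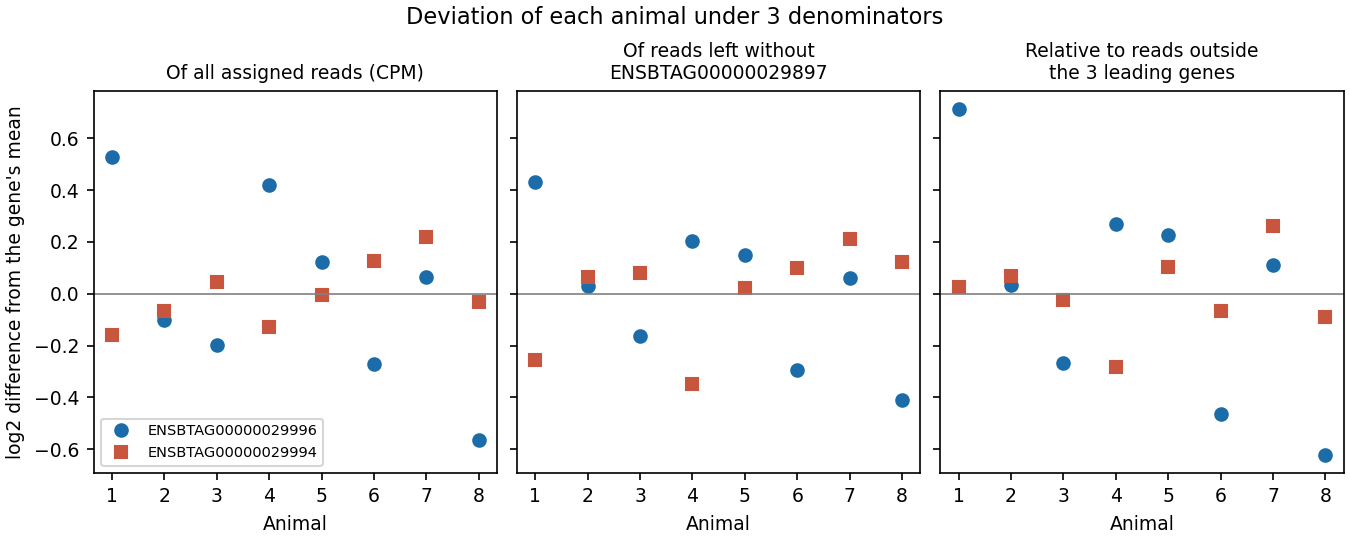
Difference of each animal (x axis) from the gene's mean on the log2 scale (y axis) for ENSBTAG00000029996 (circles) and ENSBTAG00000029994 (squares), 1 point per library. The denominators are all assigned reads (left), the reads left without ENSBTAG00000029897 (middle) and the reads outside the 3 leading genes (right). Animal 8 is the lowest for ENSBTAG00000029996 and animal 7 the highest for ENSBTAG00000029994 in each panel, whereas animal 1 moves from below to slightly above the mean for ENSBTAG00000029994.

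A ratio within a library does not depend on the scaling. ENSBTAG00000029996 had 4.32 ± 1.38 times the reads of ENSBTAG00000029994 (SD, n = 8). The ratio was lowest in animal 8, at 2.86, and highest in animal 1, at 6.68, with a median of 3.89. On the log2 scale it was 2.05 ± 0.43. Of the variance of this log2 ratio on the CPM scale, 69.7% was that of ENSBTAG00000029996, 8.57% that of ENSBTAG00000029994, and 21.8% came from their opposed movement. Without animal 8 these parts were 55.8%, 11.3% and 32.9%. The ratio of ENSBTAG00000029897 to ENSBTAG00000029994 was steadier, at 45.5 ± 3.74 (SD, n = 8). Animal 7 had the lowest ratio, 39.0, and animal 1 the highest, 49.8. ENSBTAG00000029897 varied little in CPM (CV 2.23%), so this ratio mostly held the variation of ENSBTAG00000029994. The CV of the ratio was 8.21%, beside 8.99% for ENSBTAG00000029994 in CPM.

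Whether the genes differed in stability was tested on log2(CPM + 1), a scale on which 1 CPM is negligible at these levels. The SD between animals was 0.36 for ENSBTAG00000029996 and 0.13 for ENSBTAG00000029994, a ratio of 2.85. The Pitman-Morgan test for unequal spread of paired values, which correlates the sum of both log2 values with their difference, gave r = 0.81 (two-sided exact permutation over 40320 pairings of animals, p = 0.0133). A second exact test, which swaps the centred values of the genes within animals, gave p = 0.0859. Without animal 8 the SDs were 0.30 and 0.14, and the exact permutation p of the Pitman-Morgan test was 0.0571. The difference in spread thus passed the first test with 8 animals and did not pass the second, or the first without animal 8.

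The denominator changed this comparison. The reads left without ENSBTAG00000029897 include those of ENSBTAG00000029996, 35.5% of them on average. By construction, a rise of that gene adds to the denominator, which damps its own share and lowers that of ENSBTAG00000029994. The CV of the share of ENSBTAG00000029994 was 12.8% among the reads left and 9.53% with ENSBTAG00000029996 also removed. Among the reads left without ENSBTAG00000029897 the SD of ENSBTAG00000029996 was smaller, 0.28, and that of ENSBTAG00000029994 larger, 0.20. Their ratio was then 1.41 and did not pass (Pitman-Morgan, two-sided exact permutation p = 0.284; without animal 8, ratio 1.17 and p = 0.620). Relative to the reads outside the 3 leading genes the SDs were 0.44 and 0.16, a ratio of 2.73 (Pitman-Morgan, exact permutation p = 0.0275; without animal 8, ratio 2.29 and p = 0.0946), and the exact swap test gave p = 0.125. With median-of-ratios scaling the ratio was 2.28 (Pitman-Morgan, exact permutation p = 0.0647; without animal 8, ratio 1.97 and p = 0.162). ENSBTAG00000029996 had the larger SD under each of these scalings. A difference passed only in CPM and relative to the reads outside the 3 leading genes, in both cases by the Pitman-Morgan test alone and only with animal 8.

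Set beside the 80 genes that averaged 100 CPM or more, whose median SD on the log2 scale was 0.41, ENSBTAG00000029996 lay near the middle and ENSBTAG00000029994 towards the small end. Counted from the smallest SD, they stood at places 29 and 2 of 80 in CPM, and at places 27 and 3 without animal 8, where the median SD was 0.36. Among the reads left without ENSBTAG00000029897, which leave 79 genes to compare, they stood at places 19 and 5, and at 16 and 9 without animal 8. Under median-of-ratios scaling the places were 42 and 5 of 80, and 51 and 12 without animal 8. Within the 10 most abundant genes their places in CPM were 7 and 2. There the gene at rank 4 had an SD of 0.21, that at rank 5 one of 0.46 and that at rank 6 one of 0.28. ENSBTAG00000029897 itself had an SD of 0.03, but a gene that takes most of a library has little room to vary as a share, and with median-of-ratios scaling its SD was 0.16 beside 0.18 for ENSBTAG00000029994.

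**Figure D3:**
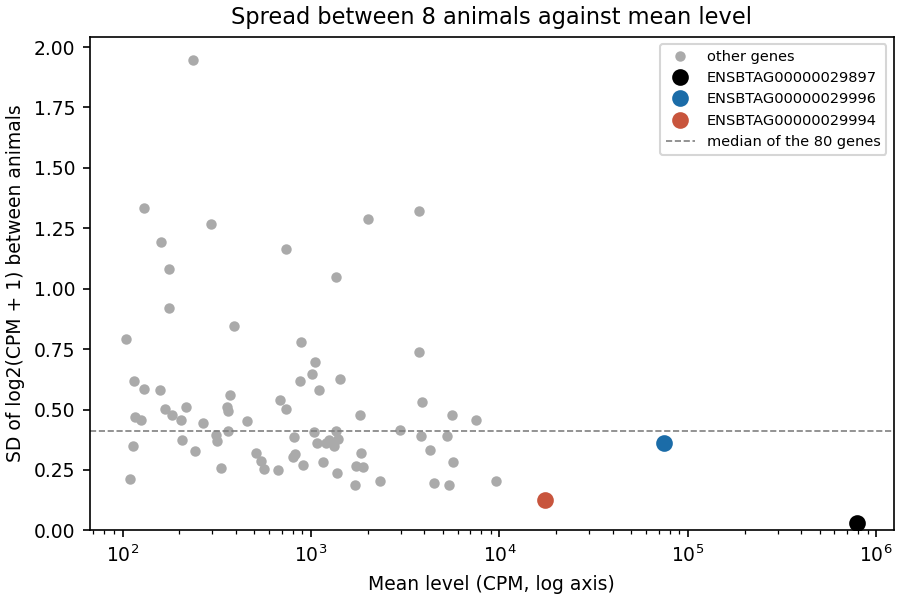
SD of log2(CPM + 1) between the 8 animals (y axis, from 0) against mean level in CPM (x axis, log scale) for the 80 genes averaging 100 CPM or more, 1 point per gene. The dashed line is the median SD of 0.41; ENSBTAG00000029996 lies just under it at 0.36, ENSBTAG00000029994 at 0.13 and ENSBTAG00000029897 at 0.03.

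The next question was whether the 2 genes moved together across animals. In CPM their log2 levels had Pearson's r = -0.45 (two-sided exact permutation p = 0.270, adjusted 0.540) and Spearman's rho = -0.52 (exact permutation p = 0.197, adjusted 0.393), over 8 animals. Adjusted values are Benjamini-Hochberg over 10 relations, 5 in CPM and 5 among the reads left. Without animals 1 and 8, farthest on the log2 scale from the median of ENSBTAG00000029996, r was -0.49. Among the reads left r was -0.68 (exact permutation p = 0.0707, adjusted 0.236) and rho -0.74 (exact permutation p = 0.0458, adjusted 0.231), and without animals 1 and 8 r was -0.52. ENSBTAG00000029996 itself held 26.3 to 47.2% of the reads left. As its reads rise, the share of ENSBTAG00000029994 falls by construction, and the permutation does not allow for this. Relative to the reads outside the 3 leading genes the sign turned, with r = 0.19. No relation between the 2 genes passed the adjustment, and its direction depended on the denominator.

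ENSBTAG00000029996 was lower in animals where ENSBTAG00000029897 took more of the reads, with r = -0.79 (two-sided exact permutation p = 0.0198, adjusted 0.101) and rho = -0.69 (exact permutation p = 0.0694, adjusted 0.231) in CPM over 8 animals. This did not pass the adjustment. Without animals 4 and 8, farthest from the median of ENSBTAG00000029897, r was -0.60 (exact permutation p = 0.199). Among the reads left r was -0.60 (exact permutation p = 0.116, adjusted 0.289) and rho -0.69 (exact permutation p = 0.0694, adjusted 0.231), and without animals 4 and 8 r was -0.39. Between animal 1 and animal 8, ENSBTAG00000029996 was higher by 55607 CPM in animal 1, and the difference for animal 1 minus animal 8 was -35536 CPM for ENSBTAG00000029897, -1452 for ENSBTAG00000029994 and -18619 for the other 1150 genes together; in CPM such differences sum to 0. The sign of the relation was kept among the reads left and turned with median-of-ratios scaling, where r was 0.35, and with TMM, where it was 0.26. Both of these scalings divide the genes by the same factor in each animal, so r also holds the variation of that factor. The SD of ENSBTAG00000029897 was 0.03 in CPM, 0.16 with median-of-ratios and 0.13 with TMM. In CPM all genes share a fixed total, so a gene holding most reads can rise only as others fall. The reads left are those that ENSBTAG00000029897 does not take, so both values are tied there as well. The permutation allows for none of this, so these r cannot separate a relation of the genes from the shared denominator.

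ENSBTAG00000029994 showed r = 0.29 with ENSBTAG00000029897 in CPM (two-sided exact permutation p = 0.495, adjusted 0.657) and rho = 0.21 (exact permutation p = 0.619, adjusted 0.781). Without animal 4 this r was -0.05, and without animals 4 and 8 it was 0.07. As a share of the reads left its r with ENSBTAG00000029897 was 0.80 (exact permutation p = 0.0202, adjusted 0.101), with rho = 0.52 (exact permutation p = 0.197, adjusted 0.393). Without animals 4 and 8 this r was 0.54. With median-of-ratios scaling it was 0.76 (exact permutation, adjusted 0.113 over the 5 relations on that scaling) and with TMM 0.73 (adjusted 0.160, same exact test). The size of this relation thus depended on the scaling, and it passed the adjustment under none of these. At a given CPM of ENSBTAG00000029994, its share of the reads left rises by construction as ENSBTAG00000029897 takes more. Median-of-ratios and TMM divide both genes by the same factor in each animal, so r there also holds the variation of that factor. The permutation allows for neither, so these r cannot separate a relation of the genes from the shared denominator. Library depth was the remaining covariate that could be had, since the labels name no batch. Against total assigned reads, r in CPM was 0.35 for ENSBTAG00000029996 (exact permutation p = 0.400, adjusted 0.657; rho = 0.17, p = 0.703, adjusted 0.781) and 0.20 for ENSBTAG00000029994 (exact permutation p = 0.632, adjusted 0.657; rho = 0.36, p = 0.389, adjusted 0.649). Without animals 2 and 3, the farthest from the median depth, these were 0.24 and 0.47.

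**Figure D4:**
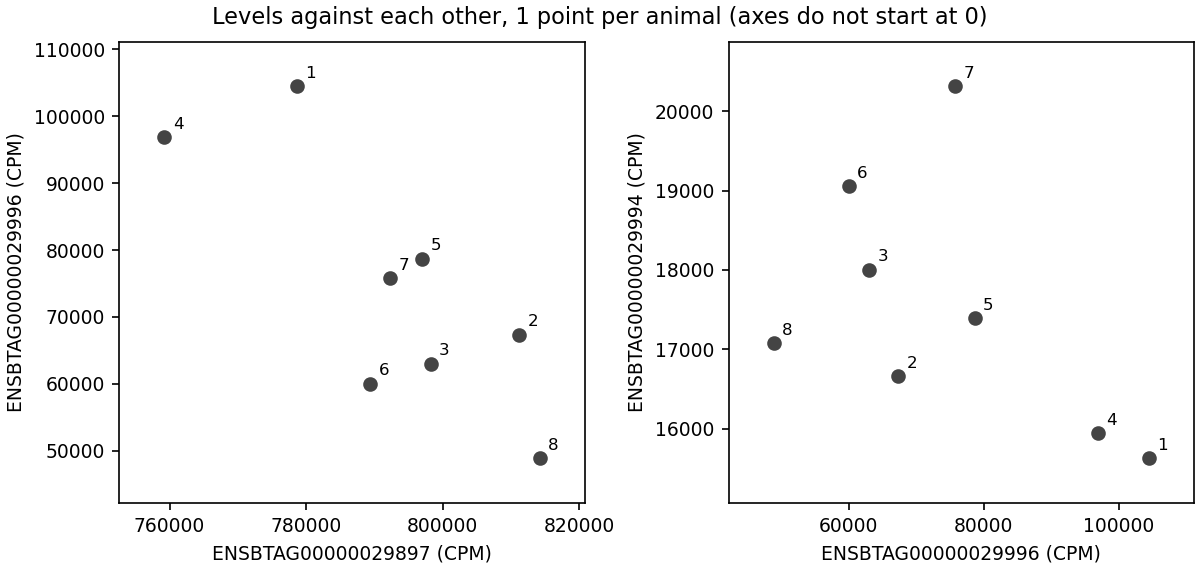
Levels in CPM of ENSBTAG00000029996 against ENSBTAG00000029897 (left, r = -0.79) and of ENSBTAG00000029994 against ENSBTAG00000029996 (right, r = -0.45), 1 numbered point per animal; the axes do not start at 0. Animals 1 and 4 lie at the upper left in the left panel and at the lower right in the right panel.

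Genes with a like pattern were looked for among the other 79 genes averaging 100 CPM or more, by Pearson's r of log2 levels over 8 animals and by the SD of the log2 ratio, which does not depend on scaling. Both are descriptions: the genes named are the extremes of 79, and all levels share the same libraries. For ENSBTAG00000029996 the median r was 0.05 and the highest belonged to the genes at ranks 36, 57 and 20, with 0.86, 0.75 and 0.72. The same 3 genes had the most constant ratio to it, with SDs of 0.21, 0.24 and 0.26 against a median of 0.53.

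By both measures the gene at rank 36 was closest to ENSBTAG00000029996. It ran from 558 CPM in animal 8 to 1454 in animal 1, and ENSBTAG00000029996 had 62.7 to 90.8 times its level. Its r was 0.80 among the reads left, 0.89 with median-of-ratios scaling and 0.78 without animal 8, the highest of the 79 genes there as well. The genes at ranks 57 and 20 also had their lowest level in animal 8, with 241 and 1136 CPM. Without that animal their r was 0.56 and 0.45, places 8 and 12 among the 79. ENSBTAG00000029897 had the lowest r with ENSBTAG00000029996 in CPM, the -0.79 given above.

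For ENSBTAG00000029994 the median r was 0.04. The highest values were 0.84 for the gene at rank 5, 0.63 for that at rank 13 and 0.55 for that at rank 75. The gene at rank 5 ranged more widely than ENSBTAG00000029994, from 4756 CPM in animal 8 to 12734 in animal 7. Both genes peaked in animal 7, followed by animal 6, but in animal 8 the gene at rank 5 was at its lowest while ENSBTAG00000029994 was near its mean. Its r was 0.93 without animal 8, 0.69 among the reads left and 0.76 with median-of-ratios scaling. The r of the gene at rank 13 with that scaling was 0.33, and that of the gene at rank 75 among the reads left was 0.26. The lowest r belonged to the gene at rank 26, with -0.72 in CPM and -0.29 under median-of-ratios scaling.

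By constancy of ratio the picture for ENSBTAG00000029994 was different, since this measure favours genes that vary little. ENSBTAG00000029897 came first, with an SD of the log2 ratio of 0.12 against a median of 0.43 over the 79 genes, and 0.13 without animal 8. Next was the gene at rank 8 with 0.16, and ENSBTAG00000029994 had 2.69 to 3.82 times its level. After it came that at rank 79 with 0.19 and ratios from 137 to 197. The gene at rank 5, first by r, was at place 22 by this measure.

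**Figure D5:**
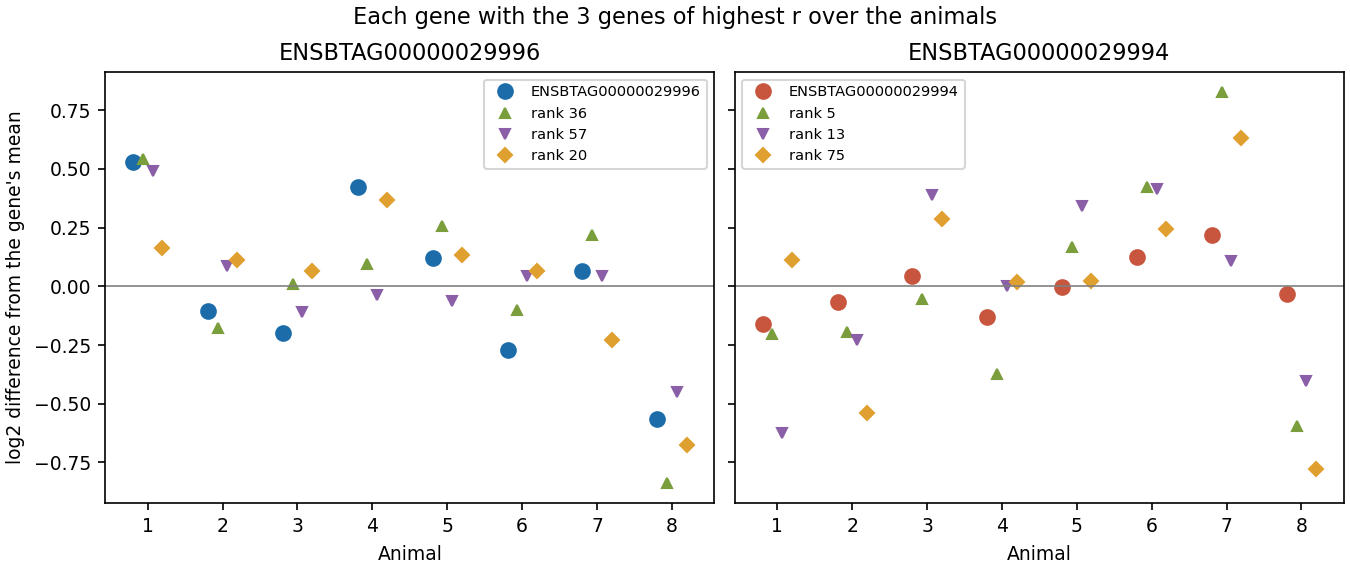
Difference of each animal (x axis) from the gene's mean on the log2 scale (y axis, from CPM + 1) for ENSBTAG00000029996 (left) and ENSBTAG00000029994 (right), each with the 3 genes of highest r, which are named by rank; 1 point per library, set side by side within an animal. The 4 genes on the left are at their lowest in animal 8, and on the right animal 8 is low for the genes at ranks 5, 13 and 75 but near the mean for ENSBTAG00000029994.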

How the data were processed

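Per the labels' protocols, 8 µL of the small RNA fraction of adherent cells entered a multiplexed library kit. CASAVA 1.8.2, FastQC 0.10.0, cutadapt 1.0, Novoalign 2.07.11 and HTSeq are listed, per the submitters' processing notes, without roles or order. Not given in the sources used here are the genome build, the annotation, strand use and how reads matching several loci were treated, so genes with near-identical copies are uncertain, and the arms of a precursor are not separated. The deposited values are CPM: each column sums to 1000000. Whole reads were recovered from the authors' CPM; 100% of 2379 values above 0 came out whole within 0.02 of a read, 1 read being worth 0.170 to 0.275 CPM.

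With a single group there was no contrast to fit, so no count test was run; edgeR 4.0.16 (R 4.3.3) gave TMM factors and the biological CV on recovered reads. Other steps used Python 3.11.15, numpy 2.4.6, pandas 2.3.3 and scipy 1.17.1, with a pseudocount of 1 CPM. Correlations and the difference in spread were tested by exact permutation at 0.05. Read recovery, the SD of log2 values and the 2 tests of spread were tried on simulated data, where the genes varied independently. The other steps were not. The 2 genes, neighbours at ranks 4 and 5, and for each gene the 3 genes of highest r, the gene of lowest r and the 3 of most constant ratio were described. The genes and measures were chosen with earlier results of these data known.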

Additional observations from a re-analysis of the deposited data

How the results depend on the processing

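Mean levels, the log2 ratio and the correlation of ENSBTAG00000029996 with depth kept within their spread or their side of the threshold wherever not named here; 117 of 144 alternative values did. Leaving out each animal in turn gave means of 70079.9 to 78024 and 17111 to 17780 CPM, SDs of 0.30 to 0.39 and 0.10 to 0.14, and a ratio of SDs of 2.22 (without animal 8) to 3.95 (without animal 7), with exact permutation p from 0.0012 to 0.0571. That ratio was 2.28 with median-of-ratios scaling (exact permutation p = 0.0647), 2.26 with TMM (p = 0.0713) and 1.41 among the reads left (p = 0.284); under the swap test 2.85 gave an exact p = 0.0859. The SD of ENSBTAG00000029994 became 0.18 with median-of-ratios and with TMM, and 0.20 among the reads left. Its share of reads left became 13.2% with ENSBTAG00000029996 also removed, by construction. Its place became 5 under each of those scalings and 58 of 402 with any read. It stayed 2 of 143 at a mean of at least 10 CPM and 2 of 37 at 1000. The 402 include genes of few reads, whose SD is kept small by the pseudocount of 1 CPM, as 1 read is worth at most 0.275 CPM. The place of ENSBTAG00000029996 became 19 of 79 among the reads left, 202 of 402 with any read, 47 of 143 at a mean of at least 10 CPM and 18 of 37 at 1000; with the minimum levels the genes compared changed. The correlation between both genes became 0.11 with median-of-ratios, 0.026 with TMM and 0.19 outside the 3 leading genes, and ran from -0.69 to -0.21 with single animals left out. That of ENSBTAG00000029996 with ENSBTAG00000029897 became 0.35 and 0.26 with median-of-ratios and TMM, and ran from -0.85 to -0.71 with single animals left out. That of ENSBTAG00000029994 with ENSBTAG00000029897 was 0.76 with median-of-ratios and 0.73 with TMM, and ran from -0.052 (without animal 4) to 0.42, and its correlation with depth became -0.18, -0.0056 and -0.19 with median-of-ratios, TMM and among the reads left. The edgeR biological CV, which is drawn towards that of other genes, was 23.8% for ENSBTAG00000029994 and 29.8% for ENSBTAG00000029996. The plain CVs were 8.99% and 25.3%. The edgeR CV and the correlation of shares of reads left with ENSBTAG00000029897 were chosen after seeing the data. So was leaving out animal 8 together with another scaling. Each scaling divides all genes of an animal by the same factor, so correlations between genes on it also hold the variation of that factor. The cause of the other changes was not tested. Samples could not be paired between groups because the animals form 1 group. The tests of spread paired the 2 genes within animals.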

Other observations

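On the CPM scale the distance between ENSBTAG00000029994 and the gene at rank 4 was narrowest in animal 8, where the ratio of their reads was 1.36, and widest in animal 7, at 2.39. Its mean was 1.87 ± 0.324 (SD, n = 8). In animal 8 the gene at rank 4 reached 12551 CPM, its highest level, and in animals 7 and 8 it was at place 5 rather than 4. Place 4 in animal 7 went to the gene at rank 5, which was at place 9 in animal 8. Outlying animals were looked for by Dixon's test, at the 95% level, in 9 measures of the 2 genes (levels, log2 levels, both kinds of share and the log2 ratio). No animal was called an outlier in any of the 9. The largest ratio, 0.439 for animal 1 and ENSBTAG00000029996 relative to the reads outside the 3 leading genes, was under the critical value for 8 samples. Animal 8, whose library stood apart across genes, was thus not called an outlier in the level of either gene. With 8 values, not passing this test does not show that an animal is typical, and animal 8 was the lowest for ENSBTAG00000029996.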
